A study of Mus musculus with 28 samples.

Results

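The genes described here are 36 rod and cone photoreceptor genes. They were read in single cells picked as Müller glial cells (MGCs) from retinas of control mice and of 2 mouse models of photoreceptor loss. They were taken from a list of names, with 14 genes listed for rods, 11 for rods and cones and 9 for cones. The other 2, Gnb1 and Unc119, serve phototransduction and are also used by many other cells. These classes are labels of the list and were not tested. A gene listed for rods, such as Sag or Rom1, may also be used by cones. Of the 36 genes, 34 were measured by a probe set with a single gene symbol, among 18194 genes measured in all. Nr2e3 and Cnga3 were not analysed here. The list follows photoreceptor transcripts that were found on the arrays of cells picked as glia, and the cells in which they were made were not tested.

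Phototransduction turns light into a change of current across the photoreceptor membrane. A visual pigment activates the G protein transducin, transducin frees the phosphodiesterase PDE6 from its inhibitory gamma subunit, and the fall in cGMP closes a cation channel in the outer segment. Arrestin, a receptor kinase and the guanylate cyclase activating proteins end the response and reset the cell, and recoverin holds back the kinase. Rods and cones use separate genes for most of these steps. The transcription factors Crx and Nrl switch many of them on during retinal development, Crx in rods and cones and Nrl in rods.

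The series held 28 arrays, each hybridized with the amplified cDNA of 1 cell. The adult WT cells (MG1, MG16, MG22, MG15 and MG3, n = 5) came from C57/BL6 mice that the labels give as older than 25 weeks, whereas the study's text gives a younger minimum age, so how well they match the Rhod-ko cells in age is not settled. Rhod-ko mice, which are deleted in the rod-specific visual pigment gene, gave cells 2, 1, 3, 7 and 8 at 8 weeks (n = 5) and cells A1 to A5 at 25 weeks (n = 5), and the deleted gene was not analysed here. The rd1 mice are FVB animals with a mutation in the beta subunit of the cGMP phosphodiesterase, the product of Pde6b, and gave cells B4, A4, A1, B3 and B1 at postnatal day 13 (P13, n = 5) and 5 arrays at 5 weeks. Congenic FVB mice without that mutation gave cells A3, A4 and A5 at P13 (n = 3). All values below are listed in these orders. The study placed rd1 at P13 and Rhod-ko at 8 weeks near the peak of rod death. It placed rd1 at 5 weeks and Rhod-ko at 25 weeks in the period of cone death. In rd1 at 5 weeks the arrays A5 and A6 held almost one profile. Their Pearson r over log2 signals, floored at 100 for this check, was 0.989. Of the probe sets with a mean signal of at least 500 in the pair, 98.9% were within 2-fold. In the next most similar pair these values were 0.764 and 43.6%. The mean of A5 and A6 was used as 1 cell, leaving A1, A5/A6, B1 and A8 (n = 4) and 27 cells in all. The strain differs between the 2 disease models, the P13 and adult cells differ in age, and the labels name no animal for any cell. The cells of a condition were therefore 1 sample, and conditions were compared without a test.

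A gene was called on in a cell when its highest probe set had a MAS5 signal of at least 2000, on arrays that were each scaled to a trimmed mean of 500. Between 1847 and 3208 genes were on per cell. Of 19 MGC markers, 13 to 19 were on in every cell from adult WT, from Rhod-ko at both ages and from rd1 at 5 weeks, but the P13 cells were of 2 kinds. Cells B4, A4 and B3 of rd1 had 15 to 17 MGC markers on and 1 to 3 of 11 vascular markers. The 3 congenic FVB cells and cells A1 and B1 of rd1 had 3 to 8 MGC markers on and 9 to 11 vascular markers. The glial glutamate transporter Slc1a3 had a signal of at most 124 in these 5 cells and of at least 6866 in the other 3 P13 cells. The summed vascular signal was 129386 to 165353 in the 5 cells, 7384 to 8718 in the other 3 and 1214 to 42117 over all cells of the other conditions. The cells labelled congenic FVB MGCs thus had Slc1a3 and most other MGC markers off, and the P13 comparisons below are also given within a kind of cell. The adult WT cells were not alike either. Rlbp1, another MGC marker, had signals of 22.2, 24.5 and 147 in MG1, MG16 and MG22, against 109338 in MG15 and 149346 in MG3. Crym and Car14 were off in the same 3 cells and on in MG15 and MG3. Pmel, a pigment epithelium marker, was 31711, 34266 and 46869 in the 3 cells and at most 593.5 in all others. Of 10 such markers, 1, 3 and 1 were on in the 3 cells and 1 each in MG15 and MG3. The arrays do not show in which cell a transcript was made.

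The control regions of 4 members are shown because the members that were on together in these cells include the targets of Crx and Nrl and the 2 factors themselves. Each run is the 250 bases before the start of the gene in RefSeq on GRCm38.p6, written 5′ to 3′ on the gene's strand. Sag lies at chr1:87803430-87803679 on the plus strand, Nrl at chr14:55524253-55524502 on the minus strand, Crx at chr7:15879956-15880205 on the minus strand and Pde6h at chr6:136954273-136954522 on the plus strand. Capitals mark TAATCC or its reverse complement GGATTA, the core bound by Crx, and TGCTGA, a core bound by Nrl, which was searched on both strands as well. No match overlapped another.
Sag: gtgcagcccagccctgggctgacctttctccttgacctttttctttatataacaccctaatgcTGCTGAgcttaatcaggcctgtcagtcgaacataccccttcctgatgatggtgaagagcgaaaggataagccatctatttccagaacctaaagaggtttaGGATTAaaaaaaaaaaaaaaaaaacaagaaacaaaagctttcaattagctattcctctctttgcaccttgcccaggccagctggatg
Nrl: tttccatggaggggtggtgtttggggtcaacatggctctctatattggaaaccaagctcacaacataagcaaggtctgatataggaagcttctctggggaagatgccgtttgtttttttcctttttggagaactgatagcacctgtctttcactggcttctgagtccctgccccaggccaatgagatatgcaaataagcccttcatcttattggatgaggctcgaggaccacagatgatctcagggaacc
Crx: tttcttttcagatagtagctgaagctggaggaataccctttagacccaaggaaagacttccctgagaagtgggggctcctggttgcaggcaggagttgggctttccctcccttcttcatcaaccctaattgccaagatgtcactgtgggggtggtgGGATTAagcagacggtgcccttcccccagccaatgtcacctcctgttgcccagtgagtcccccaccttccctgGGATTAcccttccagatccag
Pde6h: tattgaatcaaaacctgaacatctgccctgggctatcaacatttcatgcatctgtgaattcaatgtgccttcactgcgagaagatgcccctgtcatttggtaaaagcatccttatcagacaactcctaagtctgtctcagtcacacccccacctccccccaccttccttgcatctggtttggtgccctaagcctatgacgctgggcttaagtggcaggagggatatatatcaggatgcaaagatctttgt
Of the members, 26 were matched to a promoter. TAATCC stood on either strand in 10 of them (38.5%), namely Abca4, Aipl1, Cnga1, Cngb1, Crx, Gnat2, Gngt1, Guca1a, Sag and Unc119, and in 6.25% of 32851 promoters of the same length. TGCTGA stood in 6 (23.1%), namely Aipl1, Opn1sw, Pde6b, Rdh12, Sag and Unc119, and in 16.1% of all promoters. Sag held 1 match of each kind, Crx held 2 of TAATCC, and the windows of Nrl and Pde6h held neither.

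Each of the 8 P13 cells had at least 5 rod genes on, and no cell of adult WT, of the older Rhod-ko mice or of rd1 at 5 weeks had more than 4. Most cone genes were on in few cells, but Pde6h was on in 11 cells and Gnb3 in 8. Of 13 rod genes measured, 5, 8 and 11 were on in the congenic FVB cells and 6 to 10 in the rd1 cells at P13. Sag, Gnat1, Pde6g, Rom1 and Nrl were on in each of the 8. In rd1 at 5 weeks 1 to 4 rod genes were on per cell. Rhod-ko cells had 2 to 8 rod genes on at 8 weeks and 0 to 2 at 25 weeks, and adult WT cells had 0 to 2. No cone gene of 8 was on in any adult WT cell. Rhod-ko cells had 0 to 2 on at 8 weeks and 0 to 3 at 25 weeks. The range was 0 to 1 in congenic FVB, 0 to 4 among P13 rd1 cells and 0 to 6 among those of 5 weeks.

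**Figure D1:**
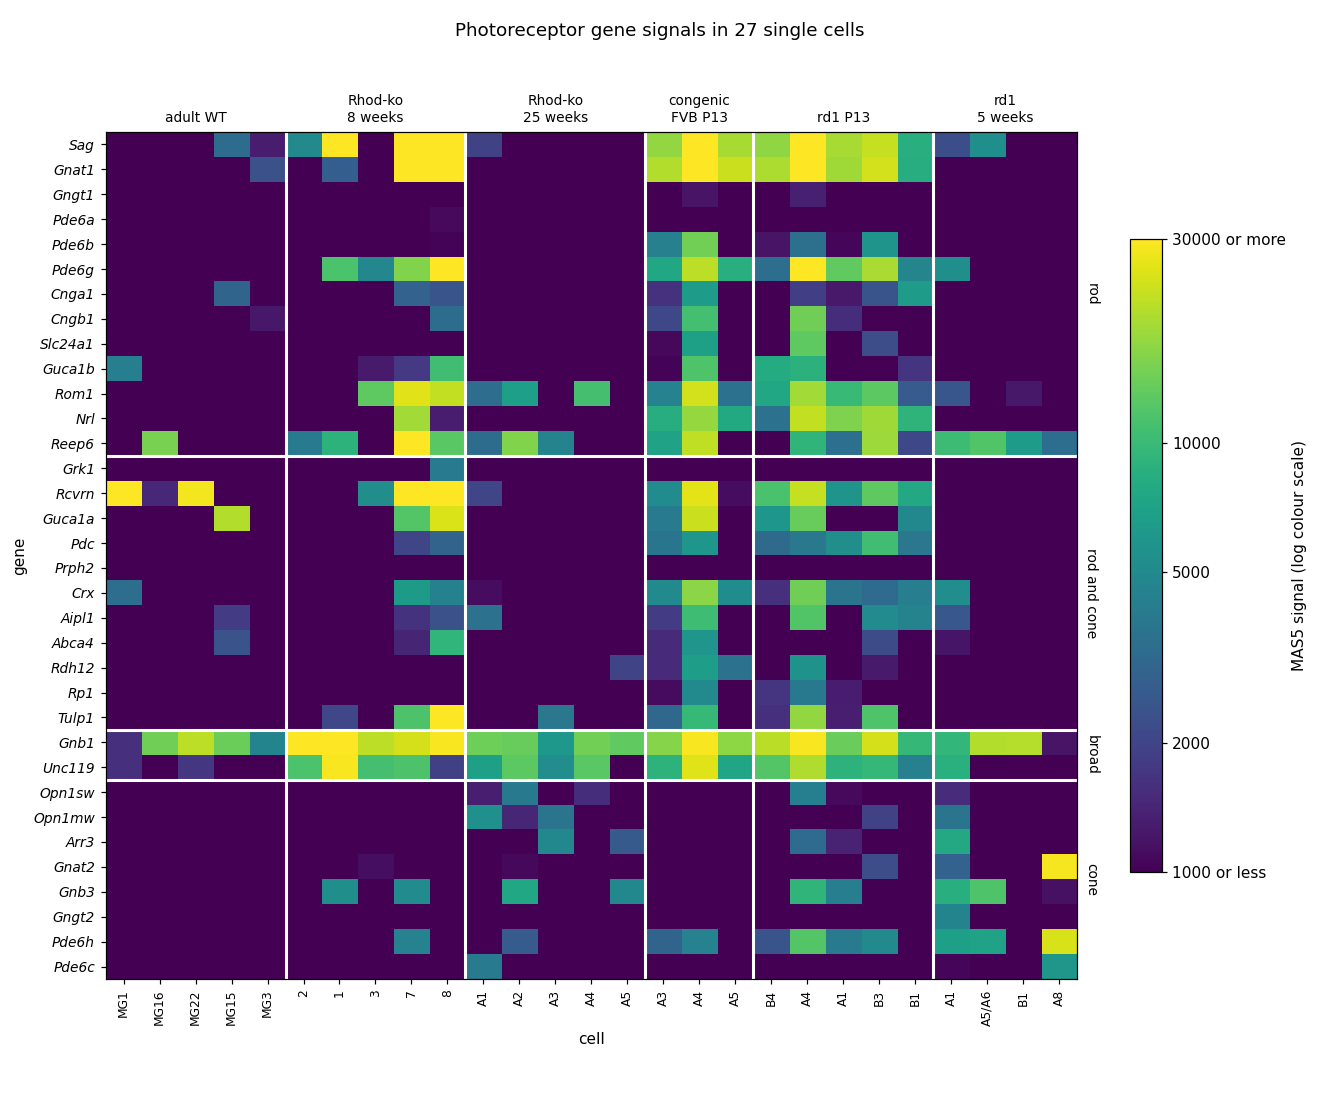
MAS5 signals of 34 photoreceptor genes (rows, grouped by class) in 27 single cells (columns, grouped by condition) on a log colour scale that ends at 1000 on its dark side. The rows of Sag, Gnat1, Pde6g and Rom1 are above the darkest shade in all 8 P13 cells and in cells 7 and 8 of Rhod-ko at 8 weeks, and the cone rows are dark in all 5 adult WT cells.

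The count of rod genes differed between conditions with like numbers of genes on. The P13 cells had 2841 to 3072 genes on and the Rhod-ko cells at 25 weeks 2670 to 3123, with 5 to 11 rod genes on in the first and 0 to 2 in the second. These conditions also differ in age, strain and genotype. The part of the number of genes on in the rod counts was not tested. Both kinds of P13 cell held rod transcripts. The 3 cells with more MGC markers had 6, 9 and 10 rod genes on, and the 5 cells with more vascular markers had 5 to 11 (median 7). Over all members, 2 to 5 of 34 were on per cell in adult WT (median 2), 4 to 17 in Rhod-ko at 8 weeks (8), 3 to 8 at 25 weeks (6), 9 to 23 in congenic FVB (16), 12 to 24 in P13 rd1 cells (14) and 2 to 14 in rd1 cells of 5 weeks (4.5). Cell A4 of congenic FVB and cell A4 of rd1 at P13 had the most, with 23 and 24.

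**Figure D2:**
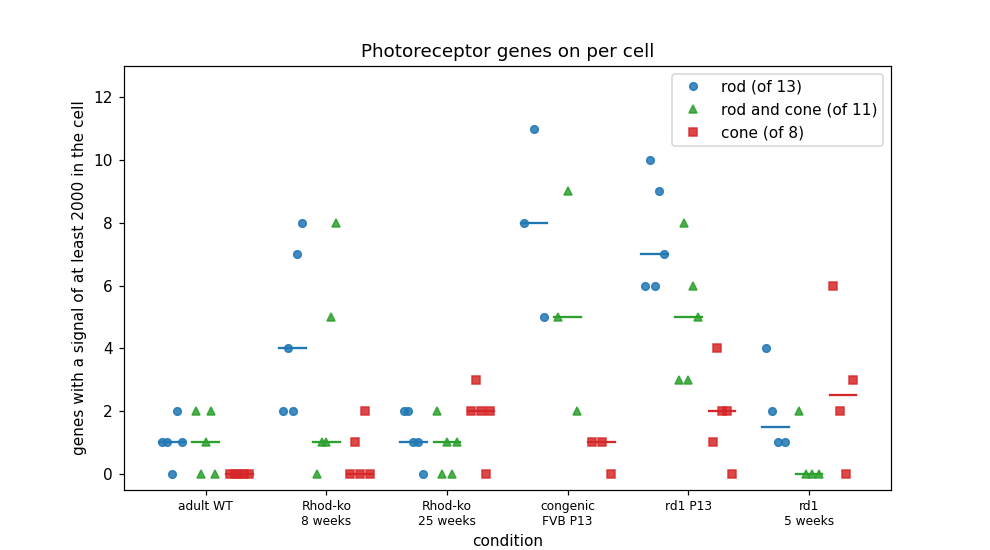
Number of rod (of 13), rod and cone (of 11) and cone (of 8) genes on (signal 2000 or more) per cell, by condition; each point is 1 cell and each line the median of the condition. The 8 P13 cells have 5 to 11 rod genes on, and no adult WT cell has a cone gene on.

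Sag encodes rod arrestin, which binds the activated pigment and ends its signal. Its signal was 79.0, 2.3, 11.4, 3345 and 1296 in the adult WT cells, 5115, 61069.6, 192.5, 54427.5 and 33269 in Rhod-ko at 8 weeks and 1947, 415, 359.5, 16.5 and 64.9 at 25 weeks. Sag signals in the FVB cells were 17261, 32117 and 19188 in congenic FVB, 16947, 30216, 19283, 22173 and 8578 in rd1 at P13 and 2255, 5436, 111 and 7.3 in rd1 at 5 weeks. All P13 cells and 4 of 5 Rhod-ko cells at 8 weeks were on, cell 3 being the exception, and every rd1 cell at 5 weeks lay below every P13 cell. Of the 5 rd1 cells at P13 the share on was 5 of 5, for which the exact 95% binomial interval starts at 47.8%. With 3 of 3 cells on it starts at 29.2%, with 0 of 5 it ends at 52.2% and with 0 of 4 it ends at 60.2%. These intervals take cells as independent draws and cover counting error only. The labels name no animal, so the intervals do not apply to the conditions.

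Gnat1, the alpha subunit of rod transducin, had much the same pattern. Gnat1 signals were 44.7, 200, 70.8, 216 and 2323 in adult WT, 523, 2750.4, 537, 57659 and 54423.5 in Rhod-ko at 8 weeks and 77.8, 179.8, 108, 91.9 and 80.2 at 25 weeks. They were 20157, 39498 and 22897 in congenic FVB, 19847, 35459.6, 18481.5, 23632 and 8347 in rd1 at P13 and 38.4, 92.6, 180.1 and 294 in rd1 at 5 weeks. Cells 7 and 8 of Rhod-ko at 8 weeks were the highest of all cells, cell 1 was on and cells 2 and 3 were not. No cell of Rhod-ko at 25 weeks or of rd1 at 5 weeks passed 294, and 1 adult WT cell, MG3, was on.

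Pde6g encodes the inhibitory gamma subunit of the rod phosphodiesterase. Pde6g signals were 181, 58.0, 36, 35.6 and 406 in adult WT, 92.4, 11415.5, 4857, 15789 and 32589 in Rhod-ko at 8 weeks and 98.7, 969, 57.4, 76.7 and 47.1 at 25 weeks. They were 7564, 21238 and 8564 in congenic FVB, 3396, 29612, 13029.8, 19450.1 and 4704 in rd1 at P13 and 5437, 125, 382 and 91.3 in rd1 at 5 weeks. No adult WT cell and no Rhod-ko cell at 25 weeks was on, and at 8 weeks 4 of 5 Rhod-ko cells were. Cell A1 was the only rd1 cell at 5 weeks with Pde6g on, and it lay within the range of the P13 cells. Both probe sets of the gene were on in that cell.

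The catalytic subunits were on in few cells. Pde6b, the gene mutated in rd1, had signals of 4411.5, 14562.5 and 252 in the congenic FVB cells and 1204, 3519.5, 1052, 5781 and 707 in the rd1 cells at P13. These are 2 of 3 and 2 of 5 cells on, so the ranges overlapped, and in the other 19 cells it was between 4.3 and 1028. Pde6a lay between 2.8 and 1091 and was on in no cell. Gngt1, the gamma subunit of rod transducin, lay between 17.0 and 1347 and was on in no cell, with its 2 highest signals in the cells A4 of congenic FVB (1198) and of rd1 at P13 (1347).

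**Figure D3:**
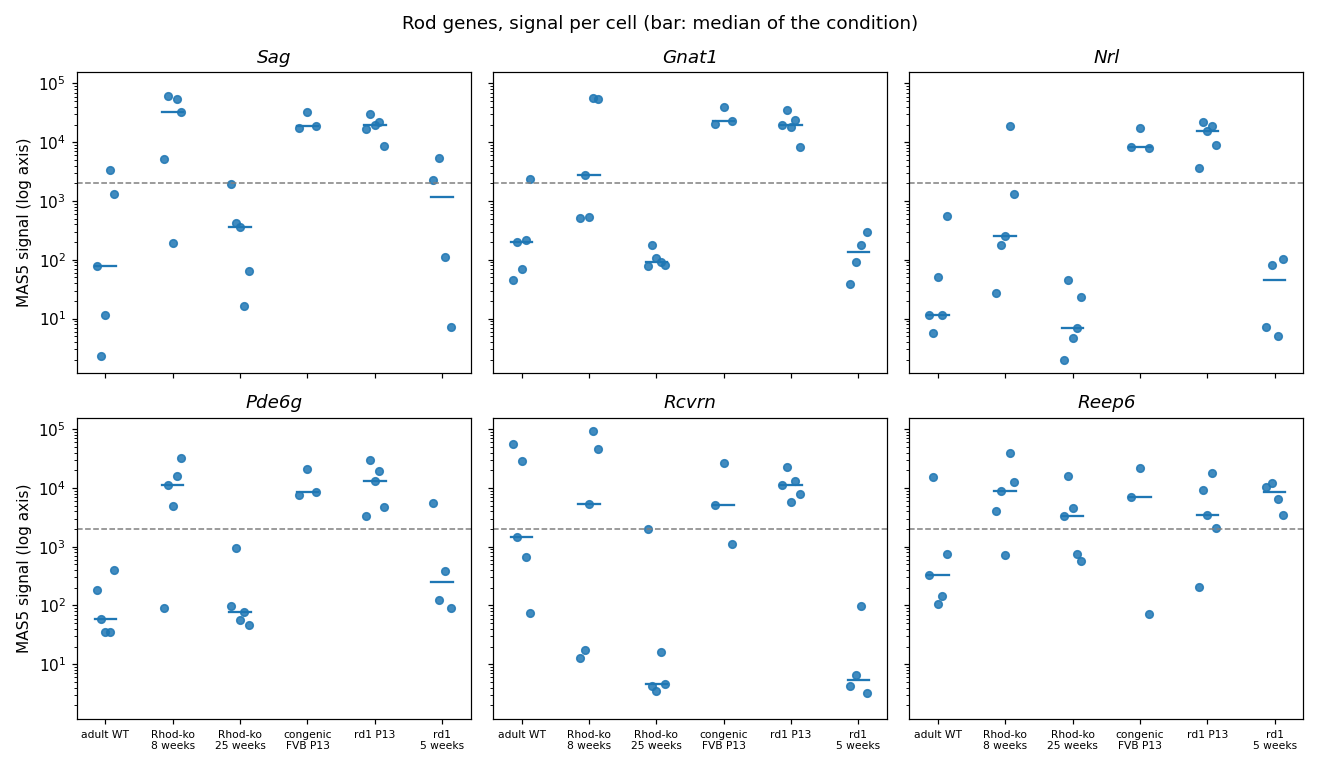
MAS5 signal (log axis) of Sag, Gnat1, Nrl, Pde6g, Rcvrn and Reep6 in each cell by condition; each point is 1 cell, each solid bar the median of the condition and the dashed line a signal of 2000. Sag, Gnat1, Nrl and Pde6g are above the line in all 8 P13 cells, Nrl and Rcvrn are below it in all rd1 cells at 5 weeks, and Reep6 is above it in all 4 of those cells.

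The rod cGMP-gated channel and its calcium exchanger were on in small sets of cells. Cnga1, the channel's alpha subunit, had signals of 27.6, 9.4, 8.2, 2985 and 368 in adult WT, 47.9, 14.7, 50.9, 2914.5 and 2405 in Rhod-ko at 8 weeks and 3.0, 7.1, 45.4, 8.7 and 2.7 at 25 weeks. Cnga1 signals were 1634, 6439 and 7.8 in congenic FVB, 142, 1887, 1267, 2405 and 6460.3 in rd1 at P13 and 2.5, 15.8, 24.9 and 5.0 in rd1 at 5 weeks. It was thus on in 6 cells, among them the adult WT cell MG15 and the Rhod-ko cells 7 and 8 at 8 weeks. Cngb1, the beta subunit, was on in cell 8 of Rhod-ko at 8 weeks (3348), in the congenic FVB cells A3 and A4 (2095 and 10791.5) and in the rd1 P13 cell A4 (14319.6), and was between 10.3 and 1561 elsewhere. The sodium, calcium and potassium exchanger Slc24a1 was on in the congenic FVB cell A4 (6924) and in the rd1 P13 cells A4 and B3 (12838.5 and 2219), and was between 1.4 and 1081 in the rest. No cell of rd1 at 5 weeks or of Rhod-ko at 25 weeks had a channel subunit or the exchanger on.

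Rom1, a tetraspanin of the outer segment disc rim, was on at P13 and also in both Rhod-ko ages. Rom1 signals were 11.5, 11.9, 223.5, 252 and 901 in adult WT, 183, 617, 12833, 25862 and 21994 in Rhod-ko at 8 weeks and 3368, 6787, 11.1, 10946 and 4.2 at 25 weeks. They were 4539, 23689.6 and 3615 in congenic FVB, 7549.6, 18718, 9936, 12741 and 2655 in rd1 at P13 and 2488, 302, 1253 and 140.1 in rd1 at 5 weeks. The 25-week cells with Rom1 on were A1, A2 and A4, which had none of Sag, Gnat1, Pde6g and Nrl on. The partner of Rom1 in the disc rim, Prph2, lay between 2.6 and 642 and was on in no cell. Guca1b, a guanylate cyclase activating protein of rods, was on in MG1 of adult WT (4268), in cell 8 of Rhod-ko at 8 weeks (10625), in A4 of congenic FVB (11759.5) and in B4 and A4 of rd1 at P13 (8090.1 and 8863), with 77.5 to 1749.8 in the other cells.

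Nrl, the leucine zipper factor that sets rod fate, was on at P13 and in 1 other cell. Nrl signals were 11.7, 5.6, 50.7, 11.7 and 551 in adult WT, 27.6, 176.5, 255, 18685 and 1316 in Rhod-ko at 8 weeks and 2.0, 45.4, 4.7, 6.8 and 22.9 at 25 weeks. They were 8358, 17502 and 7859 in congenic FVB, 3597, 21900.2, 15440.2, 18539.9 and 9141 in rd1 at P13 and 7.3, 82.3, 5.1 and 102 in rd1 at 5 weeks. The exception was cell 7 of Rhod-ko at 8 weeks. Cell 8 of the same condition, in which 8 rod genes were on, had an Nrl signal of 1316.

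Crx, the homeodomain factor of rods and cones, had signals of 3419, 29.2, 145, 972 and 278 in adult WT, 628, 539, 93.6, 6379.7 and 4435 in Rhod-ko at 8 weeks and 1120.5, 49.7, 48.4, 40.3 and 84.5 at 25 weeks. Crx signals were 5114, 16663 and 5207 in congenic FVB, 1591.5, 14268, 3719, 3270.1 and 4303 in rd1 at P13 and 5286, 87.6, 94.0 and 182 in rd1 at 5 weeks. It was on in 7 of 8 P13 cells, in cells 7 and 8 of Rhod-ko at 8 weeks, in MG1 of adult WT and in A1 of rd1 at 5 weeks. Its 2 probe sets differed: the second had a signal of 57.5 in cell 7 of Rhod-ko at 8 weeks and was on in 2 of the 27 cells, against 11 for the first.

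Reep6, which shapes the endoplasmic reticulum and has a form made in rods, stood apart from the other rod genes. Reep6 signals were 326, 15074.5, 104, 143 and 741 in adult WT, 4005.5, 9034.5, 729, 39296 and 12571 in Rhod-ko at 8 weeks and 3349, 15709, 4581, 747 and 576 at 25 weeks. They were 7088, 21802.5 and 72.6 in congenic FVB, 209, 9302, 3473, 18298 and 2089.7 in rd1 at P13 and 10246, 11913, 6541 and 3401 in rd1 at 5 weeks. It was the only rod gene on in all 4 rd1 cells at 5 weeks, and it was off in A5 of congenic FVB and in B4 of rd1 at P13, where Sag, Gnat1, Pde6g, Rom1 and Nrl were on.

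Among the genes that rods and cones share, recoverin was on in adult WT cells as well. Rcvrn, the calcium sensor that holds back the receptor kinase, had signals of 55007, 1460.3, 28357, 664 and 74.4 in adult WT, 13.0, 17.8, 5349, 92081 and 45343 in Rhod-ko at 8 weeks and 2032, 4.2, 3.5, 16.2 and 4.7 at 25 weeks. Rcvrn signals were 5164, 26163 and 1121 in congenic FVB, 11361, 22302, 5849.8, 12939.9 and 7808 in rd1 at P13 and 4.3, 6.6, 96.8 and 3.2 in rd1 at 5 weeks. MG1 and MG22 of adult WT had Rcvrn on without Sag, Gnat1, Pde6g, Rom1 or Nrl, but with other photoreceptor genes. In MG1 these were Guca1b (4268), Crx (3419), Rgs9 (20982), Rgs9bp (12291), Rd3 (8956.5) and Rorb (27042). In MG22 they were Fam161a (9949), Rgs9 (5351), Pcdh15 (3869.5) and Rorb (2954). No rd1 cell at 5 weeks passed 96.8 for Rcvrn. The receptor kinase itself, Grk1, was on in 1 cell, cell 8 of Rhod-ko at 8 weeks (4067), and was between 8.9 and 274 in the other 26.

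Guca1a, a second guanylate cyclase activating protein, had signals of 323.5, 92.5, 148, 20235 and 172 in adult WT, 102, 494, 247, 12101 and 24668 in Rhod-ko at 8 weeks and 37.0, 37.6, 17.4, 119.5 and 20.4 at 25 weeks. Guca1a signals were 4001, 22835 and 28.2 in congenic FVB, 5945, 13673, 462, 111 and 4919 in rd1 at P13 and 119, 139, 247 and 21.2 in rd1 at 5 weeks. MG15 was the only adult WT cell with Guca1a on, and Sag, Cnga1 and Abca4 were on in the same cell. Pdc, phosducin, which binds the beta and gamma subunits of transducin, had signals of 40.7, 107, 14.9, 101 and 296.5 in adult WT, 12.3, 49.7, 19.2, 2038 and 2972 in Rhod-ko at 8 weeks and 36.7, 856, 44.4, 10.7 and 30.2 at 25 weeks. Pdc signals were 3770.5, 5979 and 193 in congenic FVB, 3233, 3923, 5347, 10569 and 3839.9 in rd1 at P13 and 139, 16.0, 77.4 and 149 in rd1 at 5 weeks. It was on in all 5 rd1 cells at P13, in 2 of 3 congenic FVB cells and in cells 7 and 8 of Rhod-ko at 8 weeks, and in no other cell.

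Aipl1 and Tulp1 serve the assembly and transport of photoreceptor proteins. Aipl1, a chaperone of PDE6, had signals of 59.2, 22.0, 52.0, 1799.9 and 94.5 in adult WT, 228.5, 736, 225, 1654 and 2318 in Rhod-ko at 8 weeks and 3583, 73.0, 14.3, 20.9 and 15.4 at 25 weeks. Aipl1 signals were 1817, 10429 and 181 in congenic FVB, 45.2, 11839.9, 984.5, 5193 and 4559 in rd1 at P13 and 2530.4, 64.2, 53.6 and 90.4 in rd1 at 5 weeks. It was on in 1 cell each of both Rhod-ko ages, congenic FVB and rd1 at 5 weeks, and in 3 of 5 rd1 cells at P13. Tulp1, needed for transport to the outer segment, had signals of 785.5, 14.9, 55.5, 257 and 379.5 in adult WT, 58.8, 2073, 34.8, 11545 and 39581 in Rhod-ko at 8 weeks and 92.0, 145, 3856, 146 and 8.3 at 25 weeks. Tulp1 signals were 3167, 9749 and 239.9 in congenic FVB, 1596, 17305, 1323, 11704.5 and 165 in rd1 at P13 and 148, 19.0, 34.6 and 19.7 in rd1 at 5 weeks. Cells 7 and 8 of Rhod-ko at 8 weeks were again on, and no rd1 cell at 5 weeks was.

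The visual cycle and cytoskeletal genes were on in few cells. Abca4, the flippase that clears retinal from discs, was on in MG15 of adult WT (2389), cell 8 of Rhod-ko at 8 weeks (9319.7), A4 of congenic FVB (5877) and B3 of rd1 at P13 (2207), and was between 18.8 and 1509 elsewhere. Rdh12, a retinal reductase, was on in A5 of Rhod-ko at 25 weeks (2014), in A4 and A5 of congenic FVB (6699 and 3554.5) and in A4 of rd1 at P13 (5685), and was between 26.2 and 1514 elsewhere. Rp1, a microtubule protein of the axoneme, was on in the cells A4 of congenic FVB (5079) and of rd1 at P13 (3931), and was between 8.4 and 1663 elsewhere. All 3 were thus on in A4 of congenic FVB, the cell with 23 members on.

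The 2 broadly used genes differed from the rest and from each other. Gnb1, the beta subunit of rod transducin and of many other G proteins, had signals of 1593, 14403, 21494, 14023 and 4659 in adult WT, 33568, 34267, 21295, 24197 and 29157 in Rhod-ko at 8 weeks and 14226, 13647, 6139, 14492 and 13075 at 25 weeks. Gnb1 signals were 16251.5, 29014 and 16781 in congenic FVB, 21183, 28844.5, 13854, 24076 and 9650.4 in rd1 at P13 and 9557, 20201, 20659.5 and 1203 in rd1 at 5 weeks. Only 2 of 27 cells had it off, MG1 of adult WT and A8 of rd1 at 5 weeks. Unc119, a carrier of lipid-modified proteins such as transducin, had signals of 1588, 183, 1719.7, 127 and 738 in adult WT, 11465, 29058, 11008, 11617 and 1911 in Rhod-ko at 8 weeks and 6881, 12778, 5282.5, 12599.8 and 13.1 at 25 weeks. Unc119 signals were 9046, 25256 and 7365 in congenic FVB, 12138, 19895, 8973, 9639 and 4427.5 in rd1 at P13 and 8692, 127, 23.1 and 121.5 in rd1 at 5 weeks. Unc119 was off in every adult WT cell, while 4 of 5 cells of each Rhod-ko age and 1 of 4 rd1 cells of 5 weeks had it on.

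The cells with most cone genes on were A1 of rd1 at 5 weeks, with 6 of 8, and A4 of rd1 at P13, with 4, the second of which also had 10 of 13 rod genes on. Pde6h, the inhibitory gamma subunit of the cone phosphodiesterase, had signals of 366, 689, 395, 121 and 89.8 in adult WT, 131, 333, 144, 4500.2 and 715 in Rhod-ko at 8 weeks and 107, 2705, 161, 812 and 184 at 25 weeks. Pde6h signals were 2977.5, 4535 and 594 in congenic FVB, 2434, 12133, 4061, 5006 and 247 in rd1 at P13 and 6856, 7136, 316 and 24398 in rd1 at 5 weeks. Both of its probe sets were on in A1, A5/A6 and A8 of rd1 at 5 weeks, and the gene was on in 6 of 8 P13 cells. Gnb3, the beta subunit of cone transducin, which ON bipolar cells use as well, had signals of 236, 44.2, 114, 129.8 and 499.7 in adult WT, 346, 5407.5, 20.3, 5188 and 703 in Rhod-ko at 8 weeks and 17.9, 7535, 273, 203 and 4894 at 25 weeks. Gnb3 signals were 220.2, 15.7 and 56.6 in congenic FVB, 37.1, 9199.7, 4298.5, 152 and 85.6 in rd1 at P13 and 8433, 11721, 160.3 and 1169.9 in rd1 at 5 weeks. The 8 cells with Gnb3 on had 0 to 5 of 8 bipolar markers on, the summed bipolar signal was 3232 to 51359 in them, and the part of those transcripts in the Gnb3 signal was not tested.

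Gnat2, the alpha subunit of cone transducin, was on in A8 (28753) and A1 (2932) of rd1 at 5 weeks and in B3 of rd1 at P13 (2233), and was between 8.3 and 1129.6 elsewhere. Pde6c, the catalytic subunit of the cone phosphodiesterase, was on in A8 of rd1 at 5 weeks (6055) and in A1 of Rhod-ko at 25 weeks (4037), and was between 8.1 and 1058 elsewhere. Gngt2, the gamma subunit of cone transducin, was on in A1 of rd1 at 5 weeks (4609.6) and was at most 482 in the other cells. Cell A8 therefore held Gnat2, Pde6h and Pde6c with Reep6 as its only rod gene on, and cell A1 held 6 of 8 cone genes with 4 of 13 rod genes. Beside 18 of 19 MGC markers, cell A1 had amacrine markers (6 of 10), bipolar markers (5 of 8) and ganglion cell markers (5 of 10) on. In A8 these counts were 3, 1 and 1 beside 18, and the part of other neurons' transcripts in the cone signals was not tested.

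The cone pigments and cone arrestin were on in Rhod-ko at 25 weeks and in rd1. Opn1mw, the middle wavelength pigment, was on in A1 and A3 of Rhod-ko at 25 weeks (5528 and 3694) and in A1 of rd1 at 5 weeks (3682), and was between 41.0 and 1957 elsewhere. Opn1sw, the short wavelength pigment, was on in A2 of Rhod-ko at 25 weeks (3935) and in A4 of rd1 at P13 (4337), and was between 3.8 and 1566 elsewhere. Arr3, cone arrestin, was on in A3 and A5 of Rhod-ko at 25 weeks (4872 and 2623), in A4 of rd1 at P13 (3262.5) and in A1 of rd1 at 5 weeks (7795), and was at most 1398 elsewhere. Among Rhod-ko cells, 4 of 5 at 25 weeks and 0 of 5 at 8 weeks had at least 1 of these 3 genes on. The other cone genes differed less: at each age Gnb3 was on in 2 of 5 cells, Pde6h in 1, and Gnat2 and Gngt2 in 0. Pde6c was on in 1 cell at 25 weeks and in 0 at 8 weeks. The share of all genes on per cell was 14.7% to 17.2% at 25 weeks and 10.8% to 13.0% at 8 weeks. The probe sets of a gene differed here too: 1 of the 2 for Opn1sw was on in no cell, and of the 3 for Arr3 the first was on in 4 cells, another in 2 and the last in none.

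**Figure D4:**
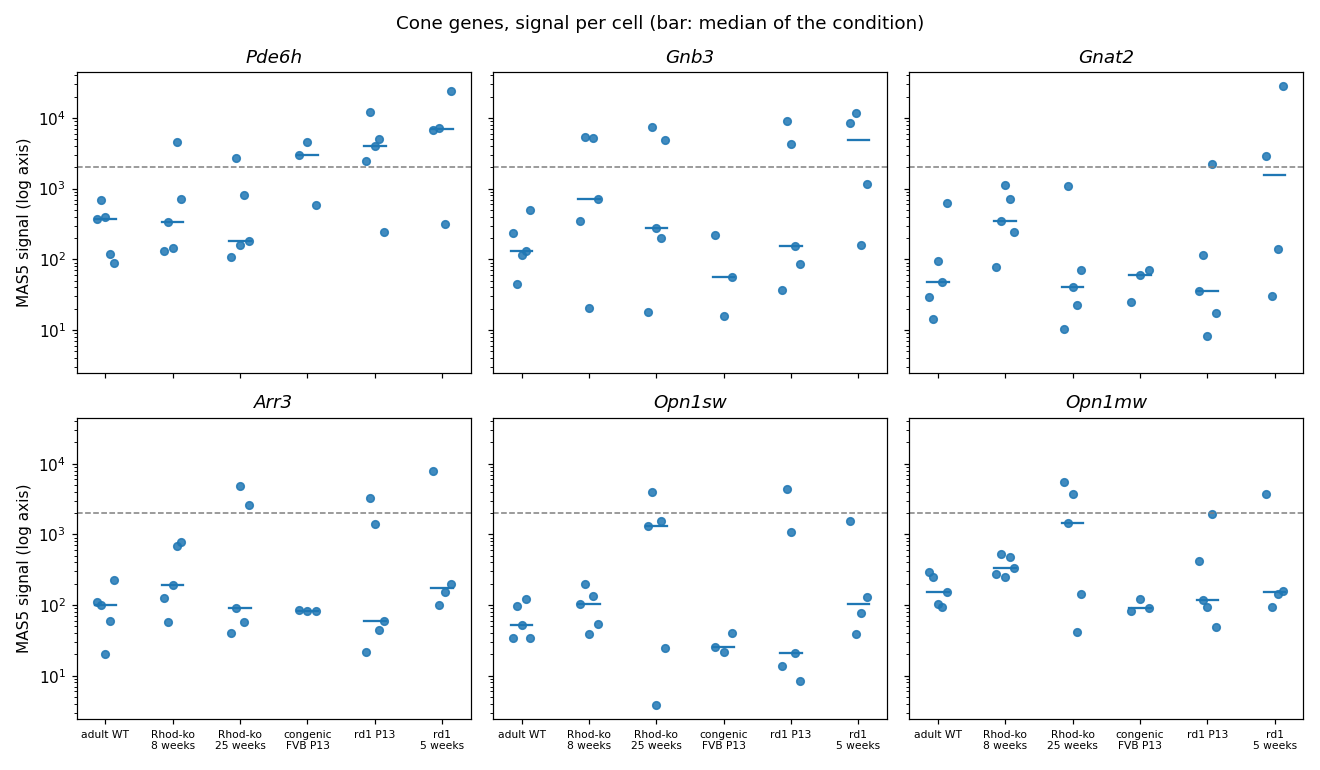
MAS5 signal (log axis) of the cone genes Pde6h, Gnb3, Gnat2, Arr3, Opn1sw and Opn1mw in each cell by condition; each point is 1 cell, each solid bar the median of the condition and the dashed line a signal of 2000. All 5 adult WT cells lie below the line for each gene. Pde6h is above it in 2 of 3 congenic FVB, 4 of 5 rd1 P13 and 3 of 4 rd1 5-week cells. Each of the other genes is above it in at most 2 cells of a condition.

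Conditions were then compared by their medians, to ask whether photoreceptor transcripts moved with the stage of degeneration. On the log2 scale, with signals floored at 1000, a difference of at least 1 (2-fold) between group medians made a gene higher or lower. This is a rule of size and not a test, and a difference against a median under the floor is a lower bound. The comparisons share groups, since each group but congenic FVB enters more than 1 of the 6.

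In Rhod-ko at 8 weeks against adult WT, 9 of 34 members (26.5%) were higher, with 6.17% of all genes higher, and 0 were lower, with 5.12% of all genes lower. The rod genes among them were Sag (at least 5.06 on the log2 scale), Rom1 (at least 3.68), Pde6g (at least 3.51), Reep6 (at least 3.18) and Gnat1 (at least 1.46). Of the shared and broad genes, Unc119 (at least 3.52), Rcvrn (1.87), Gnb1 (1.06) and Tulp1 (at least 1.05) were higher. The cells of both groups overlapped for 8 of the 9. Unc119 was the exception, 1 of 34 members (2.94%) beside 0.698% of all genes that were higher without overlap. Cells 7 and 8 weighed on the count: without cell 7 the count was 6 and without cell 8 it was 7. Without cell 7 or without cell 8, Gnat1 (0.73), Rcvrn (0.66) and Tulp1 (0.53) were under 2-fold. Gnb1 was under it without cell 2 or cell 1 (0.92), after scaling to the 90th percentile (0.73) and after quantile normalization (0.78). Rcvrn also came to 0.006 without MG16 of adult WT and turned to -0.27 without MG15 or MG3. Cell 7 also had 6 of 11 microglia markers on, with a summed microglia signal of 284174 against at most 24863 in any other cell, and the ratio of 3′ to 5′ Gapdh probe sets was 3.95 to 18.2 in these 5 cells against 0.554 to 4.06 in adult WT, and the part of either in these counts was not tested.

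In Rhod-ko at 25 weeks against adult WT, 3 of 34 members (8.82%) were higher, beside 7.9% of all genes, and 0 were lower, beside 3.7%. The 3 were Unc119 (at least 2.78), Rom1 (at least 1.75) and Reep6 (at least 1.74), all with overlapping cells. The share of members was thus near that of all genes. Rom1 was under 2-fold without A2 or A4 (0.88) and Reep6 without A2 or A3 (0.87). The higher count was 1 without A2 of Rhod-ko, and the lower count was 1 without MG16, MG15 or MG3 of adult WT. Set against Rhod-ko at 8 weeks, 8 members (23.5%) were lower at 25 weeks, beside 4.16% of all genes, and 0 were higher, beside 7.33%. The 8 were Sag (log2 difference -5.06 or lower), Pde6g (-3.51 or lower), Rcvrn (-2.42 or lower), Rom1 (-1.93), Gnat1 (-1.46 or lower), Reep6 (-1.43), Gnb1 (-1.10) and Tulp1 (-1.05 or lower). Only Gnb1 did so without overlap, 1 of 34 beside 0.726% of all genes. The lower count was 4 without cell 7 and 5 without cell 8 of the 8-week cells, and Rom1 (-0.089), Reep6 (-0.84), Gnat1 (-0.73) and Tulp1 (-0.53) were under 2-fold without either. Rom1 was also under it without cell 3 (-0.48), and Gnb1 without cell 2 or cell 1 (-0.96) and after quantile normalization (-0.35). The higher count was 1 without A1, A3 or A5 and 2 without A4 of the 25-week cells. The Gapdh 3′ to 5′ ratio was 3.95 to 18.2 at 8 weeks and 1.17 to 2.05 at 25 weeks, and the genes on per cell were 1970 to 2363 and 2670 to 3123. Neither measure overlapped between the ages, cell 7 carried the microglia signal given above, and the part of these in the count was not tested. Age and stage of degeneration differ together between 8 and 25 weeks and cannot be told apart.

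**Figure D5:**
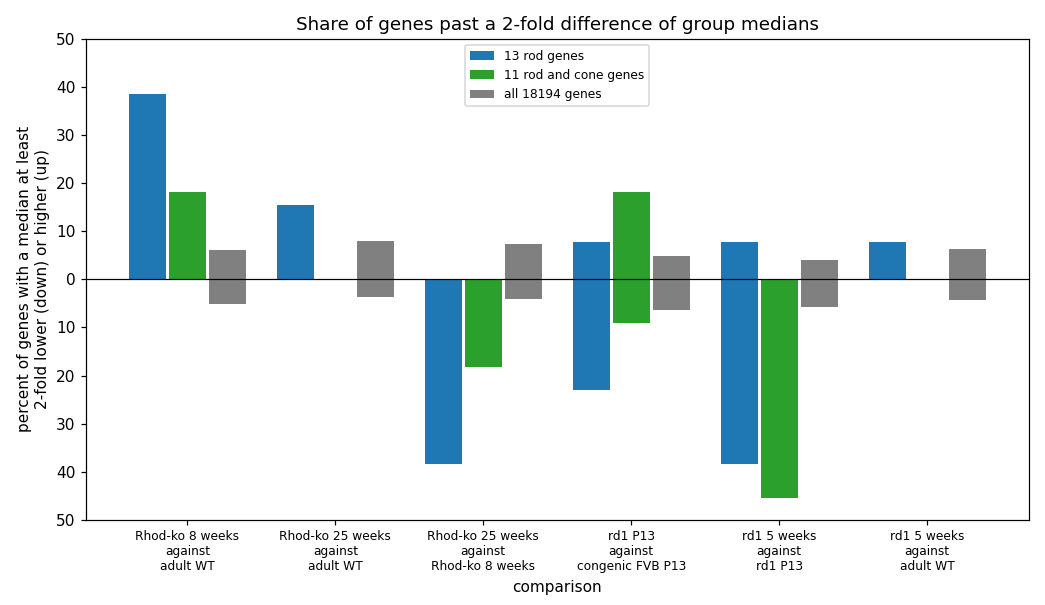
Percent of the 13 rod genes, the 11 rod and cone genes and all genes whose group median was at least 2-fold higher (bars up) or lower (bars down) in each of 6 comparisons. Of the rod genes, 38.5% are higher in Rhod-ko at 8 weeks against adult WT, and 38.5% are lower in both comparisons of the late with the early stage.

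At P13, Pde6b, the gene mutated in rd1, had a lower median in the rd1 cells than in the congenic FVB cells, with overlapping values. Of 34 members 3 (8.82%) were higher in rd1, beside 4.79% of all genes, namely Aipl1 (1.33), Rcvrn (1.14) and Rom1 (1.13). Lower were 4 (11.8%), beside 6.41% of all genes, namely Pde6b (-1.87), Rdh12 (-1.83 or lower), Cngb1 (-1.07 or lower) and Reep6 (-1.03). The cells overlapped for all 7, so 0 members were higher or lower without overlap, beside 0.352% and 0.835% of all genes, and the counts turned on single cells. The higher count was 0 without A4 of rd1 or A5 of congenic FVB, 1 without A3 and 6 without A4 of congenic FVB, and 5 without B1 of rd1. The lower count was 1 without A4, 7 without A3 and 9 without A5 of congenic FVB, and 2 without B4 or B1 of rd1. Rom1 turned to -0.062 without A5 of congenic FVB, Rcvrn to -0.033 without A5, and Reep6 to 0.38 without A4. Rdh12 alone of the 7 stayed past 2-fold whichever cell was left out. Within the kind of cell with more vascular markers, an alternative chosen after seeing the data, A1 and B1 of rd1 were set against the 3 congenic FVB cells. There 4 members were lower, beside 3.9% of all genes, namely Pde6b (-2.10 or lower), Rdh12 (-1.83 or lower), Tulp1 (-1.46 or lower) and Reep6 (-1.40), and 1 was higher, Gnb3 (at least 1.05), beside 5.5%. Rdh12 alone did so without overlap, with 1.45% of all genes lower without overlap. No congenic FVB cell had more MGC than vascular markers on, so the genotypes could not be compared within the other kind.

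Of the 13 rod genes, 5 were lower in rd1 at 5 weeks than at P13. Against rd1 at P13, 11 of 34 members (32.4%) were lower at 5 weeks, beside 5.78% of all genes: Gnat1 (-4.31), Nrl (-3.95), Pde6g (-3.70), Sag (-3.68), Rcvrn (-3.51), Unc119 (-3.27), Rom1 (-3.15), Guca1a (-2.30), Aipl1 (-2.19), Pdc (-1.97) and Crx (-1.90). Each of these is a bound, with the true difference at or below it. For Sag, Gnat1, Rom1, Nrl, Rcvrn and Pdc no cell at 5 weeks reached any cell at P13, which is 6 of 34 members (17.6%) beside 0.368% of all genes. With only the 3 rd1 P13 cells that had more MGC than vascular markers on, 15 members were lower, beside 6.86% of all genes. Leaving out each cell in turn gave 11 to 15. Crx (-0.90) and Pdc (-0.97) were under 2-fold with a floor of 2000. The genes on per cell were 3208, 2485, 1858 and 2186 at 5 weeks and 2841 to 3072 at P13. The 2 groups differ in age as well as in stage, which cannot be told apart. Adult WT cells had 0 to 2 rod genes on, against 1 to 4 in rd1 at 5 weeks. The part of age and of the number of genes on in these counts was not tested.

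Higher in rd1 at 5 weeks than at P13 were 2 members (5.88%), beside 4.12% of all genes: Gnb3 (at least 1.65) and Reep6 (1.24). Both had overlapping cells and were under 2-fold without A1 or A5/A6 of rd1 at 5 weeks (0.23 for Gnb3 and 0.91 for Reep6) and without B4 or B1 of rd1 at P13 (0.60 and 0.53). Gnb3 was also under it without B3 (0.60) and Reep6 without A1 of P13 (0.89), and Reep6 turned to -0.18 when only the 3 P13 cells with MGC markers were used. The count was 0 without A1 and 1 without A5/A6 of rd1 at 5 weeks, and 0 without B4 or B1 of rd1 at P13. Against adult WT, 3 members (8.82%) were higher in rd1 at 5 weeks, beside 6.35% of all genes, and 0 were lower, beside 4.25%. They were Reep6 (at least 3.03), the cone gene Pde6h (at least 2.81) and Gnb3 (at least 1.65), and all 3 overlapped with adult WT. Gnb3 was under 2-fold without A1 or A5/A6 (0.23). These groups differ in strain, age and genotype, which cannot be told apart. The higher count was 5 without B1 of rd1, and the lower count was 1 without MG16, MG15 or MG3. With congenic FVB at P13 as the control in place of adult WT, 14 members were lower, beside 8.83% of all genes. The congenic FVB cells differ from rd1 at 5 weeks in age as well as genotype, and each had more vascular than MGC markers on. The part of each of these in the count was not tested.

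The genes of the list were also set against each other over the 27 cells, as a description, since all cells of a condition share their age, strain and genotype. Each gene's log2 signal was correlated with the mean of the rod genes, leaving a rod gene out of the mean it was compared with. Gnat1 (Pearson r = 0.893) and Pde6g (0.887) followed the other rod genes most closely. Crx (0.861), Pdc (0.841), Tulp1, Nrl (0.821) and Sag (0.8) came next in that order. Unc119 (0.567), Gnb1 (0.469) and Reep6 (0.447) followed them less, as did the cone gene Pde6h (0.43). The cone genes Gnb3 (0.154), Arr3 (-0.016), Gnat2 (-0.128) and Opn1mw (-0.154) had values near 0.

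Of the 7124 genes on in at least 3 cells, 26 were members. The mean was taken from rod genes of the same list, so the place of members in this ranking is no separate support. The 30 genes with the highest r held 12 members, 3 genes of a separate list of 32 other photoreceptor genes, and 15 genes of neither list. The 15 were Prcd (0.808), Syp, a synaptic vesicle protein (0.8), Vtn (0.8), Tlcd3b (0.749), Dohh (0.748), Serinc3 (0.742), Coro7 (0.729), AI847159 (0.725), Samd11 (0.719), Ndufa1, a subunit of respiratory complex I (0.718), Slc17a7, a vesicular glutamate transporter (0.71), Cep120 (0.706), Mkks (0.695), Nsmce1 (0.675) and Tomm20, a mitochondrial import receptor (0.675). Prcd was on in 6 cells, 3 of Rhod-ko at 8 weeks, 1 of congenic FVB and 2 of rd1 at P13. Tomm20 was on in 21 cells, 4 of them adult WT.

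Of the 32 other photoreceptor genes 26 were measured, and their count per cell was 4 to 10 in congenic FVB, 4 to 10 in P13 rd1 cells and 0 to 3 in rd1 cells of 5 weeks. It was 0 to 3 in Rhod-ko at 8 weeks, 1 to 5 at 25 weeks and 1 to 4 in adult WT. Those on in at least 6 cells were Rbp3, Prom1, Rpgrip1, Cdhr1 and Rorb. Rbp3, the retinoid carrier of the space around photoreceptors, had signals of 941.5, 48.7, 67.0, 130.0 and 76.7 in adult WT, 155, 59.4, 2512, 1609.7 and 604.5 in Rhod-ko at 8 weeks and 2104, 2565, 41.6, 4861 and 8.4 at 25 weeks. Rbp3 signals were 7409, 26512 and 12.2 in congenic FVB, 6147, 20906.5, 6577, 10949.8 and 558 in rd1 at P13 and 4078, 29.8, 21.9 and 1049.7 in rd1 at 5 weeks. It was on in 6 of 8 P13 cells, in A1 of rd1 at 5 weeks, in cell 3 of the younger and in 3 of 5 cells of the older Rhod-ko mice, where rod genes were few. Prom1, a protein of forming discs, had signals of 13518, 16318 and 23419 in congenic FVB and 3.0, 6610.2, 8578, 2653 and 4532 in rd1 at P13, was on in cell 8 of Rhod-ko at 8 weeks (2800.2) and in A3 at 25 weeks (2636), and was at most 976 in the other cells. Rpgrip1, of the connecting cilium, had signals of 5133, 8467 and 2303 in congenic FVB and 5480.1, 5386, 6727, 939.8 and 143 in rd1 at P13, was on in A2 of Rhod-ko at 25 weeks (7114) and in A1 of rd1 at 5 weeks (8540.5), and was at most 1056 elsewhere. Cdhr1, a cadherin of the outer segment base, had signals of 4403.5, 10343 and 74.0 in congenic FVB and 1434.5, 17908, 2029.5, 9887 and 2667 in rd1 at P13, was on in A8 of rd1 at 5 weeks (5655) and was at most 1267 elsewhere. Rorb, a nuclear receptor that acts upstream of Nrl, went another way: it was on in all 5 adult WT cells (27042, 3508, 2954, 2480.1 and 5359), in A1 of Rhod-ko at 25 weeks (3815) and in B4 of rd1 at P13 (3305).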

How the data were processed

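The deposited values are signal intensities that the authors obtained with MAS 5.0 from Affymetrix Mouse Genome 430 2.0 arrays, on a linear scale, each array brought to a trimmed mean of 500 (checked here, with 2% trimmed from each end). Single cells had been picked by shape from papain-dissociated retinas of several litters, reverse transcribed from an oligo dT primer, tailed and amplified by PCR, so that transcripts are read near their 3′ ends and low inputs may be missed. The number of arrays limits the precision, and a cell with 1 array gives no error of its own.

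All 45101 probe sets of 28 arrays were read. The 34958 with 1 gene symbol in the array annotation gave 18194 genes, and current symbols for the 49 probe sets of the members came from RefSeq through their Entrez numbers. Per cell, the highest probe set stood for the gene, which is the study's own rule. Pairs of arrays were checked for near identity by Pearson r on the log2 scale. Samples were grouped by their labels, near-identical arrays were averaged, and conditions were compared by medians of log2 signals floored at 1000, without a test. All 36 members are accounted for, those on (2000 or more) in at least 6 cells with every value, and genes outside the list were named by the 15 highest correlations. The members and the lists of markers of MGCs, vascular cells, microglia, pigment epithelium, bipolar, amacrine and ganglion cells were chosen with earlier results of these data known. Other floors, thresholds, scalings, group means and the leaving out of each cell were tried as alternatives. The comparison was tested on simulated data. Python 3.11.15, pandas 2.3.3, NumPy 2.4.6 and matplotlib 3.10.9 were used.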

Additional observations from a re-analysis of the deposited data

Results flagged for a closer look

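Within conditions of 4 or 5 cells, 88 sets of values were checked for a single cell far from the others, and 24 had one. The check is set to flag about 1 in 20 sets by chance, but that rate cannot be applied here. Signals under the floor were set to the floor, and counts of genes tie. A lone cell above a floor shared by all others was thus flagged however small its excess. An example is Crx in A1 of Rhod-ko at 25 weeks (1120.5), a signal below the threshold for on. Whether 24 is more than chance gives was not tested. The sets also share cells, so that a cell with many transcripts is counted for each gene.

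In adult WT, MG15 stood above the other cells for Guca1a (20235), Sag (3345), Cnga1 (2985) and Aipl1 (1799.9). MG16 stood above them for Reep6 (15074.5), MG1 for Crx (3419) and MG3 for Gnat1 (2323). MG1 was also the only one with 0 of the 2 broadly used genes on.

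In Rhod-ko at 8 weeks, cell 7 stood above the others for Nrl (18685) and Pde6h (4500.2), and cell 8 had 1 of the 2 broadly used genes on. At 25 weeks, A1 stood above the others for Aipl1 (3583), Rcvrn (2032), Sag (1947) and Crx (1120.5), A2 for Pde6h (2705) and A3 for Tulp1 (3856). A3 lay below them for Gnb1 (6139), and A5 had 1 of the 2 broadly used genes on.

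In rd1 at 5 weeks, A1 stood above the other cells for Unc119 (8692), Pde6g (5437), Crx (5286) and Aipl1 (2530.4), and it alone had rod and cone genes on, 2 of 11.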

How the results depend on the processing

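No paired analysis was possible because the results come from no test and the labels pair no cells. Of the alternative counts, 176 stayed within 1.5 times the reported count, or within 1 SD for the number of members on per cell, and 54 moved. Of the alternative values for single genes past 2-fold, 605 stayed past it, 86 fell under it and 6 changed sign. In all 6 comparisons, the counts with each cell left out in turn ranged as follows: Rhod-ko at 8 weeks against adult WT 6 to 12 higher and 0 lower, Rhod-ko at 25 weeks against adult WT 1 to 4 and 0 to 1, 25 against 8 weeks 0 to 2 and 4 to 10, rd1 at P13 against congenic FVB 0 to 6 and 1 to 9, rd1 at 5 weeks against P13 0 to 3 and 11 to 15, and against adult WT 2 to 5 and 0 to 1.

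With a floor of 500, 5 members were higher in Rhod-ko at 25 weeks than in adult WT (11.6% of all genes) and 1 lower (4.74%), 2 higher than at 8 weeks (10.2%), and in rd1 at 5 weeks 5 higher (9.63%) and 1 lower (5.58%) than in adult WT. The percentages here give the share of all genes under the same setting. With a floor of 2000, 1 was higher in Rhod-ko at 25 weeks than in adult WT (4.17%) and 2 lower in rd1 at P13 than in congenic FVB (3.14%). With group means, 1 was lower than adult WT in rd1 at 5 weeks (5.37%) and 1 in the older Rhod-ko cells (4.14%), 2 were lower in rd1 at P13 than in congenic FVB (4.34%), and 1 was higher in rd1 at 5 weeks than at P13 (4.23%). Scaling to the 90th percentile gave 2 lower in the older Rhod-ko cells (7.23%) and 1 lower in rd1 at 5 weeks (6.17%), both against adult WT. Taking only the P13 cells with more MGC than vascular markers gave 1 higher in rd1 at 5 weeks (3.66%), and congenic FVB in place of adult WT gave 14 lower (8.83%). Taking only the P13 cells with more vascular markers, chosen after seeing the data, gave 1 higher in rd1 than in congenic FVB (5.5%).

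The median number of members on per cell in adult WT was 6 at a threshold of 500, 4 at 1000 and 4 after scaling to the 90th percentile. In congenic FVB it was 23 at 500, 23 at 1000 and 3 at 10000, in rd1 at P13 23, 20 and 5, and in Rhod-ko at 25 weeks 1 at 10000. Rcvrn in Rhod-ko at 8 weeks against adult WT ran from -0.27 (without MG15 or MG3) to 3.42 with each cell left out. In rd1 at P13 against congenic FVB, Rcvrn ran from -0.033 (without A5 of congenic FVB) to 2.24, Rom1 from -0.062 (without A5 of congenic FVB) to 1.31 and Reep6 from -1.84 to 0.38 (without A4), and Reep6 in rd1 at 5 weeks against P13 turned to -0.18 with only the P13 cells that had MGC markers. The causes were not tested. The low signals of MAS5 are background, and values under the floor have no order.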
